A study of Homo sapiens with 3 samples.

Results

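ETS1 binding at the keratin genes was examined in SCC25, an established human cell line of tongue squamous cell carcinoma. The members were the protein-coding genes of GENCODE release 44 (hg19) whose name is KRT followed by a number and, for some, a letter, which gave 55 of the 19856 protein-coding genes used. Of these, 27 lie on chromosome 12 and 28 on chromosome 17. ETS1 chromatin immunoprecipitation was sequenced in 3 samples of untreated SCC25 cells, of which 2 used antibody C20 and 1 used antibody 501A, which the study describes as independent replicate experiments, although the labels of the samples do not name separate cultures. The authors deposited 1 list of 26970 consensus peaks for the 3 samples together, which holds positions alone, with no height, score or value per sample. For this reason the results below are positions, widths and counts, there is no spread between replicates, and the antibodies could not be compared. All samples come from a single cell line, and its levels of keratin RNA were not analysed here.

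Keratins are the intermediate filament proteins of epithelial cells, and a filament is built from pairs of a type I and a type II chain. Apart from KRT18, which is of type I and lies beside KRT8, the type II genes sit in a cluster on chromosome 12 and the type I genes in a cluster on chromosome 17. Each epithelium is known by its pair, with KRT8 and KRT18 in simple epithelia, KRT5 and KRT14 in the basal layer of stratified epithelia, KRT4 and KRT13 in the upper layers of oral mucosa, and KRT1 and KRT10 in the upper layers of the epidermis. ETS1 is a transcription factor that binds DNA around the core GGAA. A peak was given to a gene when its midpoint lay in the basal domain, from 5 kb upstream to 1 kb downstream of the transcription start site (TSS) of the canonical transcript, and separately when its midpoint lay in the annotated gene body.

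A basal-domain peak was found at 15 of the 55 keratin genes (27.3%), against 56.0% of all protein-coding genes. The 15 genes were KRT7, KRT8, KRT18, KRT19, KRT5, KRT14, KRT15, KRT6A, KRT16, KRT17, KRT75, KRT84, KRT36, KRT79 and KRT80. A peak in the gene body was found at 12 keratin genes (21.8%), against 54.1% of all genes, and 19 keratin genes had a peak of either kind (34.5%, against 65.3%). The canonical TSS itself was covered by a peak at 10 keratin genes (18.2%), against 52.3% of all genes. In contrast, 8 keratin genes (14.5%) had 2 or more peaks in the basal domain, against 5.58% of all genes. Keratin genes therefore held a peak less often than genes at large, and those with a peak often had several close together. At each of these 8 genes, at least 2 of the peaks lay less than 1 kb apart, edge to edge. Joining peaks within 1 kb left 28 of the 41 peaks of the chromosome 12 cluster and 14 of the 18 of the chromosome 17 cluster. The share with 2 or more was not recounted with joined peaks, for keratin genes or for all genes. No test was run on these shares, because neighbouring keratin genes share sequence and position and the list has no replicates.

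**Figure D1:**
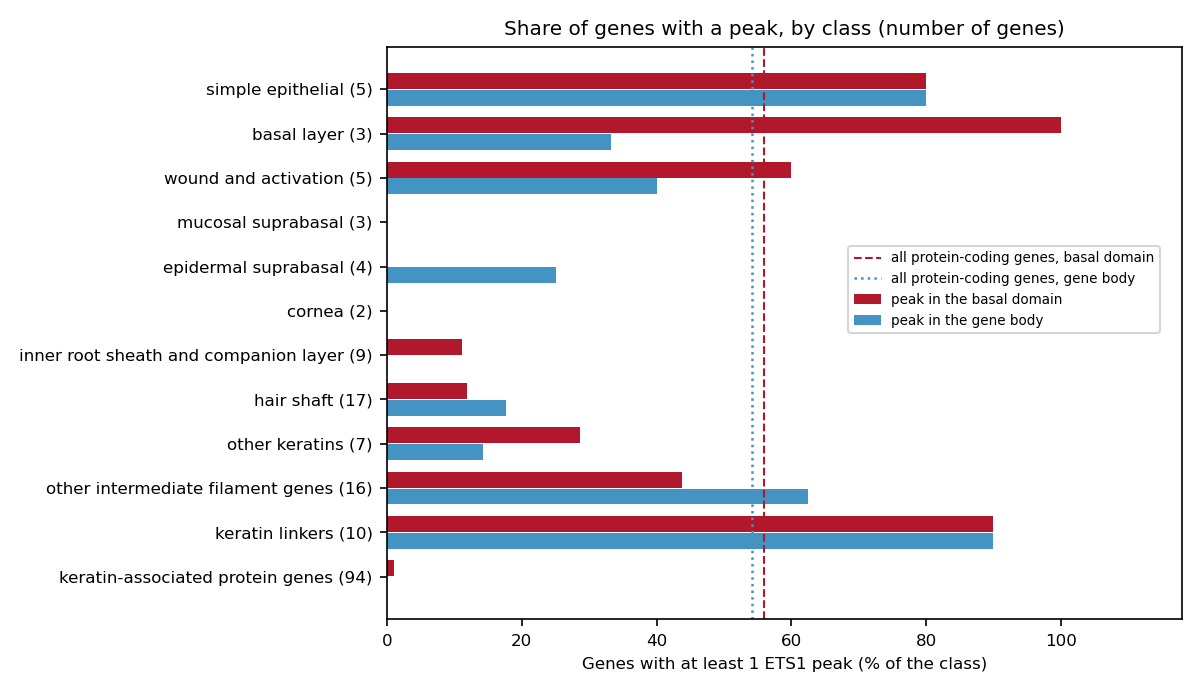
Share of genes with at least 1 ETS1 peak in each keratin class and in 3 other gene lists (y axis, number of genes in parentheses), as % of the class (x axis). Red bars count peaks in the basal domain and blue bars peaks in the gene body, and the dashed and dotted lines mark the shares of all protein-coding genes, 56.0% and 54.1%. The simple epithelial, basal layer and wound classes reach 60% to 100% for the basal domain, and the mucosal suprabasal, epidermal suprabasal and cornea classes are at 0.

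The basal-domain peaks were unevenly divided among the keratin classes, as the plot by class shows. The keratins of simple epithelia had a basal-domain peak at 4 of 5 genes, the exception being KRT20, a keratin of the intestinal lining. The keratins of the basal layer had one at 3 of 3 genes, and those of wounded or activated epithelium at 3 of 5, KRT6B and KRT6C being without. None of the 3 mucosal suprabasal genes (KRT4, KRT13 and KRT76), none of the 4 epidermal suprabasal genes (KRT1, KRT2, KRT9 and KRT10) and neither of the 2 cornea genes (KRT3 and KRT12) had one. Of the 26 keratins of the hair follicle, 3 had a basal-domain peak (11.5%), and of the 29 keratins of the other classes 12 had one (41.4%), so that both groups were below the 56.0% of all genes. Domains extended up to 1 Mb toward the neighbouring genes narrowed this contrast. With them, 61.5% of the 26 and 65.5% of the 29 had a peak, against 75.0% of all genes. Of the mucosal and epidermal suprabasal genes, 2 of 3 and 2 of 4 then had one, and neither cornea gene did. Of the simple epithelial, basal layer and wound keratins, 4 of 5, 3 of 3 and 4 of 5 did. The remaining genes with a basal-domain peak were KRT79 and KRT80, among 7 keratins put in no tissue class. KRT79 marks the hair canal, but it was counted among the 29 and not among the 26 hair follicle keratins.

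KRT8 and KRT18, the pair that makes the filaments of simple epithelia, lie side by side and carried 5 basal-domain peaks. KRT8 had 3 peaks with midpoints 8 bp, 1403 bp and 2605 bp upstream of its TSS and widths of 1198, 806 and 1369 bp. KRT18 had a 729 bp peak (chr12:53342416-53343144) with its midpoint 122 bp upstream of the TSS and a 972 bp peak 927 bp downstream of it, in intron 1. The latter was at position 988 of the list, within the first 3.66%. The list was not sorted by position on the genome and the sources used here do not say what its order follows, so list position is given as a description and not as strength. A further 2 peaks, of 2164 and 717 bp, lay 20742 bp upstream of the KRT8 TSS and 21669 bp upstream of the KRT18 TSS, inside longer annotated KRT8 transcripts. The annotated KRT8 gene overlaps the start of KRT18, so the peak at the KRT18 TSS counts in both gene bodies. In the 1 kb around the TSS, 89.2% of the 50-base words (the length of the reads) of KRT8 occurred once in the genome. At KRT18 83.8% did. Reads from the other words could not be placed by a mapping that keeps single loci only. Words were compared exactly, so a word that nearly matches another locus counts as single.

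The sequences under 2 of these peaks are shown because both peaks are under 1000 bp wide, lie within the first 3500 of the list and hold ETS and AP-1 words together, as 10 of the 60 keratin peaks did (16.7%, against 14.3% of all nuclear peaks). They are 5′ to 3′ on the plus strand of hg19, at chr12:53300113-53300304 upstream of KRT8 and chr12:53343679-53343978 in KRT18. Capitals mark AGGAAG and its relatives AGGAAA and CCGGAA (ETS words) and TGANTCA (the AP-1 word), on either strand.
KRT8 upstream: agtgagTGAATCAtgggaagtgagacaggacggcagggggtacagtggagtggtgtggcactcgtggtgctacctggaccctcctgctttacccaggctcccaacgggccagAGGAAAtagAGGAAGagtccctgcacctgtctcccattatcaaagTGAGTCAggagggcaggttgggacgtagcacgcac
KRT18 intron: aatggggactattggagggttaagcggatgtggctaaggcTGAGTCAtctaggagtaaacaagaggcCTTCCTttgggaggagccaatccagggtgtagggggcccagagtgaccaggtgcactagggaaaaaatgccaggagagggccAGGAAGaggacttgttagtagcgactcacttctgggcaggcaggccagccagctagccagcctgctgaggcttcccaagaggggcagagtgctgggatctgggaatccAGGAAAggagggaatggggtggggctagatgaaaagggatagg
The KRT8 stretch, which is the part of the window outside annotated UTRs, holds 2 ETS words between 2 AP-1 words, and the KRT18 window holds 3 ETS words and 1 AP-1 word. A matching word is a description of the sequence and not a measured binding site.

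The other keratins of simple epithelia with peaks were KRT7, a keratin of glands and ducts, and KRT19, the smallest keratin. KRT7 had 1 peak in its basal domain (chr12:52624201-52627246), 3046 bp wide, with its midpoint 1304 bp upstream and its edge across the TSS. A pair of further wide peaks, of 2888 and 2720 bp, had their midpoints over exon 2 and intron 6 of KRT7. KRT19 had a 1633 bp peak (chr17:39683355-39684987) over exon 1, with its midpoint 389 bp downstream of the TSS, and a 1240 bp peak 1497 bp upstream. A further 2 peaks, 2090 and 2263 bp wide, lay 10072 and 20058 bp upstream of KRT19 in the gap before KRT9.

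The basal layer keratins were marked mostly upstream of their start sites. KRT5, the type II chain of basal keratinocytes, had a 3415 bp peak (chr12:52913573-52916987) centred 1102 bp upstream that reached across the TSS, the widest of the 60 keratin peaks, and a 2063 bp peak centred 4391 bp upstream. KRT14, its type I partner, had 1 peak of 702 bp (chr17:39744450-39745151) centred 1653 bp upstream, and its TSS was not covered. In the 1 kb around the KRT14 TSS 75.9% of the words were single, against 100% for KRT5, and the part this plays in the difference was not tested. KRT15, another type I keratin of the basal layer and of the hair bulge, had an 882 bp peak (chr17:39675580-39676461) 878 bp upstream, at position 922 of the list, and a 2046 bp peak 3247 bp upstream. Both had their midpoint inside the longer annotated KRT15 gene, past whose start the wider peak reached, and neither covered the canonical TSS.

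The keratins that epithelia switch on in wounds held peaks at KRT6A, KRT16 and KRT17. KRT6A, a type II chain, had 3 peaks centred 226, 1439 and 3399 bp upstream, with widths of 877, 484 and 1087 bp. KRT16, its usual type I partner, had 1 peak of 697 bp (chr17:39768783-39769479) centred 112 bp upstream. KRT17 had a 793 bp peak (chr17:39780676-39781468) centred 245 bp upstream and a 466 bp peak centred 1270 bp upstream, the latter just past the end of the cluster. Windows of 300 bp at the narrowest peak of KRT6A and of KRT17 are shown because both lie in mostly single-copy sequence, with 100% and 96.4% of the words of the peak single. They lie at chr12:52888330-52888629 and chr17:39781947-39782246, on the plus strand of hg19, with the same words in capitals.
KRT6A upstream: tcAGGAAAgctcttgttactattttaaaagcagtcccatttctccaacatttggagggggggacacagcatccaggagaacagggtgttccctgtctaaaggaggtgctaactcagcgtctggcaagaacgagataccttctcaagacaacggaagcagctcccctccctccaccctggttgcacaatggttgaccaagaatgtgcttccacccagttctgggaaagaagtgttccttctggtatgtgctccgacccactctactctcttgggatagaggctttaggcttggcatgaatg
KRT17 upstream: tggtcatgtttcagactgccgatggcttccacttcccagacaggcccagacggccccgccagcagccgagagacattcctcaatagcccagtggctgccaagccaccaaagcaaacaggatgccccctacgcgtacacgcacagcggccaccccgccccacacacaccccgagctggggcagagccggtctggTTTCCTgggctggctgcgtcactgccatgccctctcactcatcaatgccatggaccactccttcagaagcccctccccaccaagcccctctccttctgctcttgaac
Each holds 1 ETS word (AGGAAA) and no AP-1 word.

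KRT6A, KRT6B and KRT6C are near-identical copies, so the peak at the KRT6A TSS and the lack of peaks at KRT6B and KRT6C are uncertain. Single words made up 59.9% of the 1 kb around the TSS of KRT6A, 59.1% at KRT6B and 54.6% at KRT6C, the lowest value of any keratin. Over the whole basal domain, in which the peaks were counted, the shares were 92.4% at KRT6A, 86.2% at KRT6B and 85.1% at KRT6C. KRT6A had 3 basal-domain peaks and its copies had none, and the part of single-copy sequence in this was not tested. The peak at the KRT6A TSS was single in 87.4% of its words, and the peaks 1439 and 3399 bp upstream of KRT6A were single in 100%. KRT14, KRT16 and KRT17 form a second group of close copies, with 75.9%, 80.7% and 84.3% single words, and all had a peak. At KRT81, whose close copies are KRT83 and KRT86, 66.0% of the words were single and no basal-domain peak was found. In all, 14 of 55 keratin genes (25.5%) had fewer than 90% single words, against 7.49% of all genes. These 14 included 6 of the 15 genes with a basal-domain peak (40%) and 8 of the 40 without (20%). The plot of single-copy sequence shows that 28 of the 40 genes without a peak were at 100%.

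**Figure D2:**
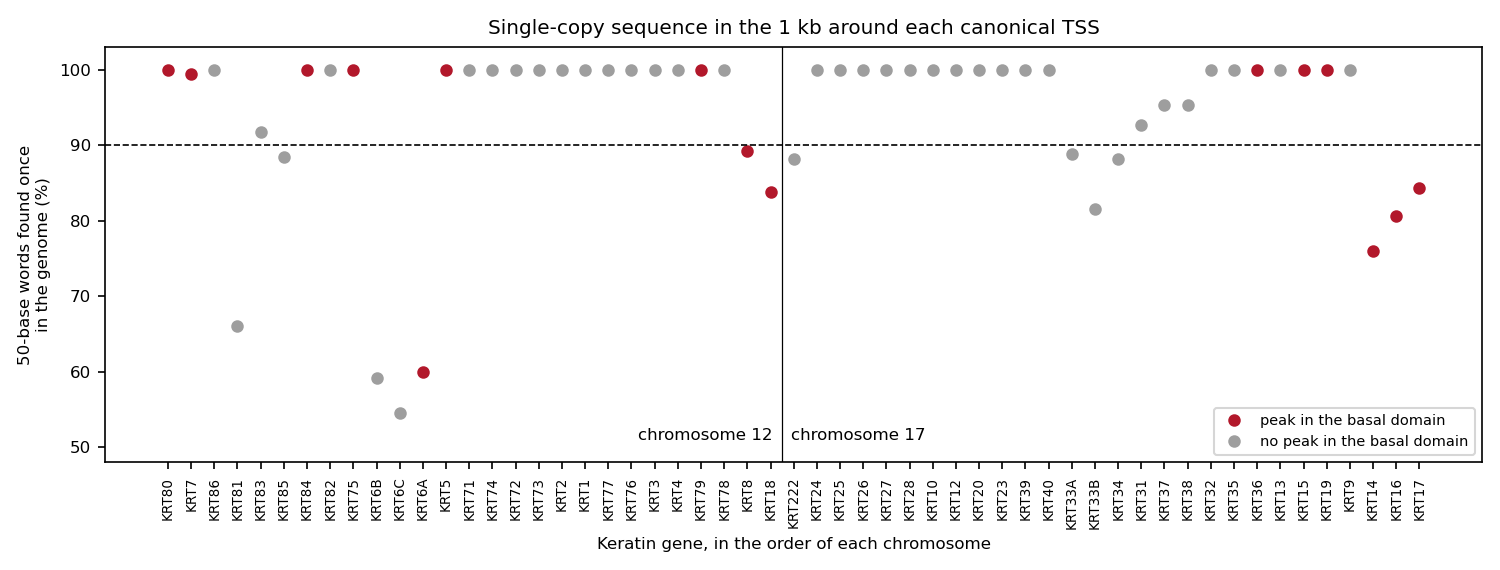
Share of 50-base words that occur once in hg19 (y axis, %, from 48 upwards) in the 1 kb around the canonical TSS of each of the 55 keratin genes, in genomic order (x axis). Red points have a basal-domain peak, grey points have none, and the dashed line is at 90%; 14 genes lie under it.

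Among the hair follicle keratins, KRT75 had the most basal-domain peaks. KRT75, a type II keratin of the companion layer that surrounds the hair, had a 753 bp peak (chr12:52827788-52828540) centred 9 bp upstream of the TSS and a 1418 bp peak 1860 bp upstream. A group of 3 narrow peaks of 349 to 549 bp lay 6626 to 8495 bp upstream of KRT75, in the gap before KRT6B. None of the other 8 keratins of the inner root sheath had a basal-domain or gene-body peak. Of the 17 keratins of the hair shaft, KRT84 had a 948 bp peak 4286 bp upstream and KRT36 a 794 bp peak 4994 bp upstream, the latter only just inside the 5 kb limit. KRT86 had 2860 and 1176 bp peaks over intron 2 and exon 11, and its annotated gene overlaps both KRT7 and KRT81. KRT33A and KRT32 had 1 intron 3 peak each, of 542 and 1454 bp. Just outside the domain were peaks 6333 bp upstream of KRT83 and 7408 bp upstream of KRT74.

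The suprabasal keratins were without peaks apart from 1 in KRT10. KRT10, the type I chain of the upper epidermis, had a 602 bp peak (chr17:38974950-38975551) over exon 7, in a window of 80.3% G and C. Its midpoint lay 3616 bp downstream of the canonical KRT10 TSS and within 500 bp of another annotated TSS. KRT13, the type I keratin of mucosal upper layers, had no peak of its own although a 2542 bp peak lay 5909 bp downstream of its TSS, in the gap between KRT36 and KRT13. KRT80, a type II keratin of many epithelia, had a 2013 bp peak (chr12:52584560-52586572) over exon 1 with its midpoint 232 bp downstream of the TSS, and peaks of 1585 and 979 bp in introns 1 and 4. KRT79, which marks the hair canal, had an 1108 bp peak (chr12:53229656-53230763) 2114 bp upstream.

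**Figure D3:**
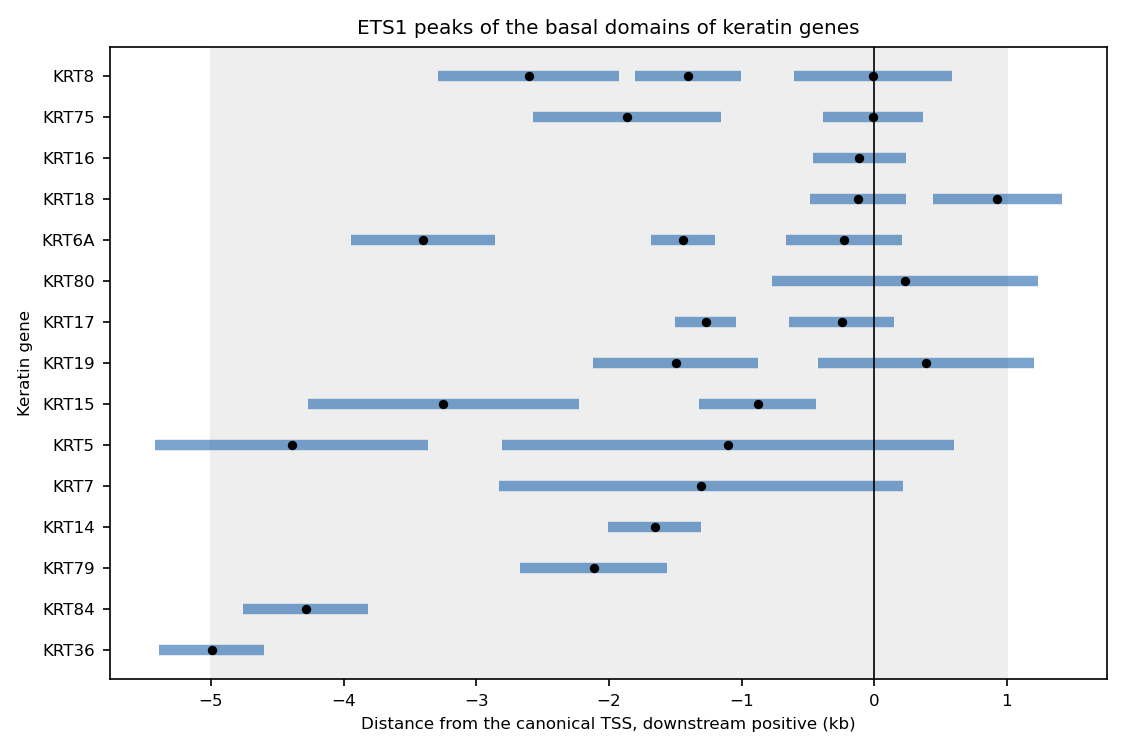
Extent (blue bars) and midpoint (black points) of each of the 25 basal-domain peaks of the 15 keratin genes (y axis), by distance from the canonical TSS in kb with downstream positive (x axis). The grey band is the basal domain, and 16 of the 25 midpoints lie more than 500 bp upstream.

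From the canonical TSS, peaks of keratin genes lay farther upstream than those of genes at large, as the plot of peak extents shows. Some of them lay at other annotated starts. The KRT15 peak 3247 bp upstream covered the start of the longer annotated gene. The KRT8 peak 1403 bp upstream had its midpoint within 500 bp of another annotated TSS. Of the 25 basal-domain peaks, 8 had their midpoint within 500 bp of the TSS (32.0%), against 75.5% of gene-peak pairs over all genes. A further 16 lay more than 500 bp upstream (64%), against 18.3% of the pairs. Over all genes there were 12314 pairs, and a peak in the basal domains of several genes counts once for each. The nearest midpoint was at a median of 389 bp for the 15 keratin genes and 187 bp for the 11110 genes with a basal-domain peak. Among genes with such a peak the TSS was covered at 10 of 15 keratins (66.7%) and at 92.4% of all genes. The 5 keratin genes with a basal-domain peak and an uncovered TSS were KRT14, KRT15, KRT36, KRT79 and KRT84.

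The gap between keratin genes and all genes was seen at each width of the domain tried. With 1 kb on each side of the TSS 9 keratin genes had a peak, against 52.7% of all genes, and with 10 kb upstream to 2 kb downstream 19 had one, against 59.6%. With domains extended up to 1 Mb toward the neighbouring genes, 35 did (63.6%), against 75.0%. Of peaks in the first 13485 of the list 11 keratin genes had one, against 36.4% of all genes, and of peaks at or above the median width 10 did, against 43.5%. Of the 41 keratin genes with at least 90% single words 9 had a basal-domain peak, against 58.9% of all such genes.

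Partners in a filament were not always alike. KRT8 and KRT18 had 3 and 2 basal-domain peaks, KRT5 and KRT14 had 2 and 1, and KRT6A and KRT16 had 3 and 1. KRT17 had 2 where KRT6B had none. For KRT4 and KRT13, for KRT1 and KRT10 and for KRT3 and KRT12 neither partner had one.

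**Figure D4:**
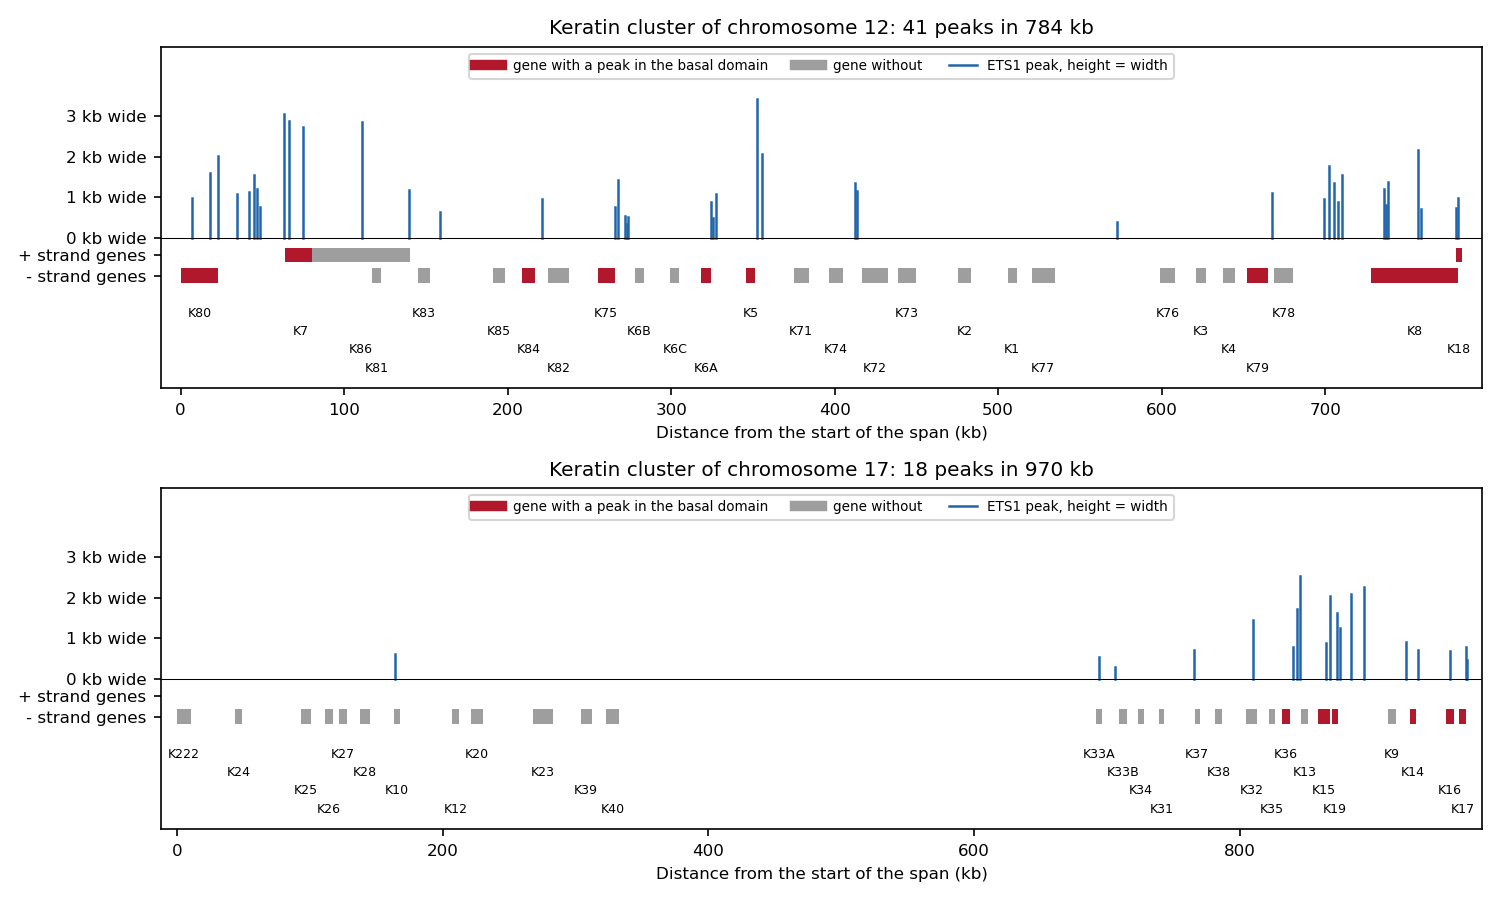
Maps of the keratin clusters of chromosomes 12 and 17, with distance from the start of the cluster in kb (x axis), genes as boxes by strand (K for KRT) and ETS1 peaks as blue lines whose height is their width in kb. Red boxes have a basal-domain peak and grey boxes have none; the right edge of the lower panel includes the KRT17 peak just past the end of the cluster.

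Over the whole clusters, the density of peaks differed between the chromosomes. The chromosome 12 cluster (chr12:52562780-53346690, from KRT80 to KRT18) held 41 peaks in 784 kb, or 52.3 per Mb (95% exact Poisson interval 37.5 to 71.0, which covers counting error only). The flanking stretches of the same length held 25.5 per Mb (15.6 to 39.4) and 39.5 per Mb (26.9 to 56.1), and chromosome 12 as a whole 10.3 per Mb. The chromosome 17 cluster (chr17:38810917-39781094, from KRT222 to KRT17) held 18 peaks in 970 kb, or 18.6 per Mb (11.0 to 29.3). Its flanks held 51.5 per Mb (38.3 to 67.9) and 44.3 per Mb (32.1 to 59.7), and chromosome 17 as a whole 19.7 per Mb. The interval of the chromosome 12 cluster overlapped those of both its flanks, whereas the interval of the chromosome 17 cluster lay below those of its flanks. The chromosome 17 cluster includes a 322.0 kb stretch of keratin-associated protein genes, which held 0 peaks. Its density without this stretch, which would be higher, was not computed, so the low value is not one of keratin genes alone. Overlap of intervals is not a test of a difference, and none was run. The chromosome 12 cluster held 27 protein-coding TSSs and its flanks 11 and 27. The chromosome 17 cluster held 63 and its flanks 27 and 34. Of the 41 peaks, 16 lay in basal domains of keratin genes, 8 in gene bodies only and 17 between keratin genes. Of the 18 peaks, 8 lay in basal domains, 3 in gene bodies only and 7 between keratin genes.

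**Figure D5:**
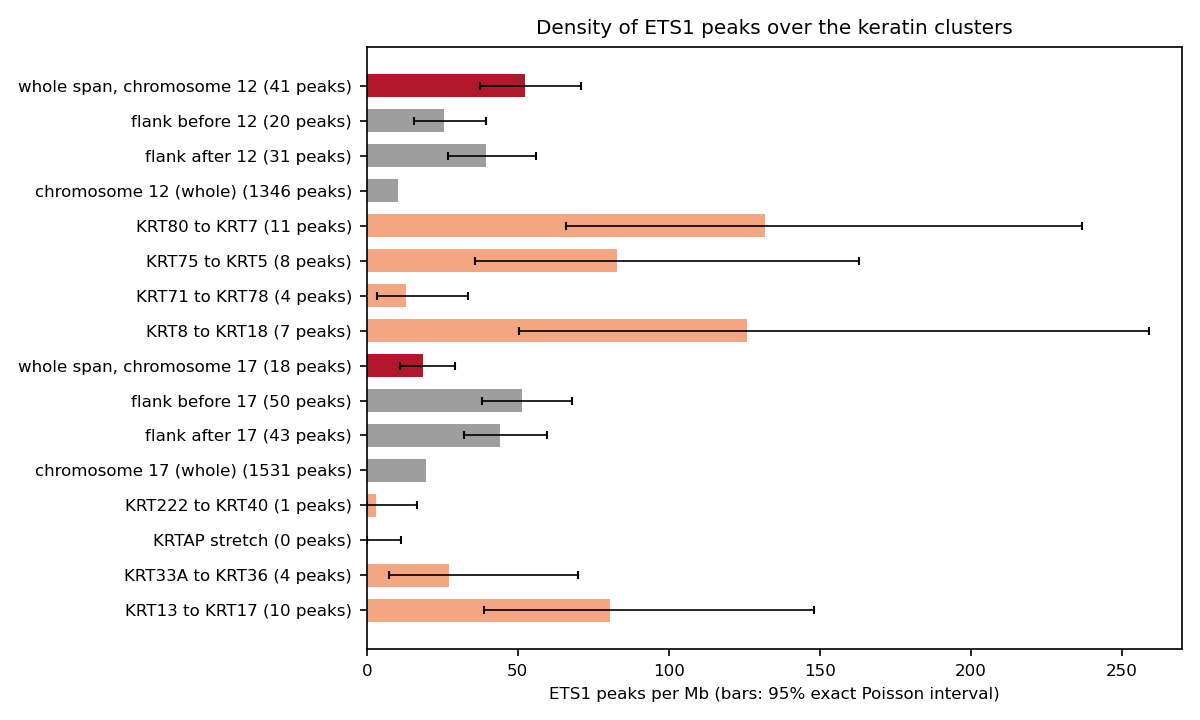
ETS1 peaks per Mb (x axis) over the keratin clusters (red), over stretches within them (orange) and over the flanks of equal length and the chromosomes (grey), with the number of peaks in parentheses. Black lines are 95% exact Poisson intervals; KRT80 to KRT7, KRT8 to KRT18, KRT75 to KRT5 and KRT13 to KRT17 lie above 80 peaks per Mb.

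Within each cluster the peaks were gathered in a few stretches, as the maps and the plot of density show. On chromosome 12 the 83.2 kb from KRT80 to KRT7 held 11 peaks (132.0 per Mb), the 96.5 kb from KRT75 to KRT5 held 8 (82.9 per Mb) and the 55.7 kb from KRT8 to KRT18 held 7 (126.0 per Mb). The 40.5 kb gap between KRT80 and KRT7 held 5 peaks outside the basal domains, and the 48.1 kb gap between KRT78 and KRT8 held 5 peaks of 877 to 1781 bp that belonged to no keratin basal domain. The 305.0 kb from KRT71 to KRT78, with the epidermal, mucosal and inner root sheath type II genes, held 4 (13.1 per Mb, interval 3.57 to 33.6). On chromosome 17 the 124.0 kb from KRT13 to KRT17 held 10 of the peaks (80.7 per Mb), and the 332.0 kb from KRT222 to KRT40 held 1 (3.01 per Mb, interval 0.0762 to 16.8). The 322.0 kb of keratin-associated protein genes, which encode the matrix proteins of hair, held 0 peaks, for which the same exact interval reaches 11.4 per Mb. Single words made up 95.8% of the chromosome 12 cluster and 93.6% of the chromosome 17 cluster.

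Several long stretches were without a peak. The longest, of 529.0 kb on chromosome 17, held the start sites of KRT12, KRT20, KRT23, KRT39 and KRT40 and 34 keratin-associated protein genes, and 938 of the 26937 stretches between peaks in the genome (3.48%) were as long. A 170.0 kb stretch on the same chromosome held KRT222 and KRT24 to KRT28. On chromosome 12 a 158.0 kb stretch held KRT72, KRT73, KRT2, KRT1 and KRT77, and a 94.1 kb stretch held KRT76, KRT3, KRT4 and the start of KRT79. Stretches as long as the last made up 21.6% of all those in the genome.

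The keratin peaks were wider than all peaks away from start sites and not near them. The median width of the 60 peaks was 1097.5 bp, against 969.0 bp for all nuclear peaks, and 12 (20%) were over 2000 bp, against 11.0%. The 31 keratin peaks more than 1500 bp from any annotated TSS had a median width of 979 bp, against 706 bp for all such peaks, and the 15 within 500 bp of a TSS had one of 972 bp, against 1262 bp. In 300 bp windows at the midpoints, both strands searched, GGAA was found in 59 of 60 (98.3%), against 96.3% of all peaks. At least 1 of the ETS words, which all contain GGAA, was found in 43 (71.7%), against 65.1%. AGGAAA was found in 24 (40%), against 28.5%, and CCGGAA in 5 (8.33%), against 16.3%. Within 500 bp of a TSS CCGGAA was found in 4 of the 15 keratin peaks (26.7%), against 25.3% of all such peaks. The AP-1 word TGANTCA was found in 12 (20%), against 20.5%. The GC box GGGCGG was found in 11 (18.3%), against 38.7%. Of the 31 keratin peaks far from any TSS, 6 held TGANTCA (19.4%), against 32.9% of all such peaks, and of the 15 near a TSS 4 did (26.7%), against 6.73%.

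The keratin promoters that could be matched to a sequence were poor in CpG. RefSeq promoter sequences (GRCh38.p14, 250 bases before to 50 after the start) were matched for 34 of the 55 genes. Among them were 6 of the 15 with a basal-domain peak (KRT8, KRT5, KRT75, KRT36, KRT79 and KRT84). The KRT8 and KRT40 sequences belong to starts upstream of the canonical TSS. KRT8 is thus counted below by a promoter other than the one where its 3 basal-domain peaks lie. The 300 bp window centred 8 bp upstream of the canonical KRT8 TSS holds 2 TATAAA words. How many of all promoters differ from the canonical TSS in this way was not counted. None of the 34 had an observed to expected CpG ratio over 0.6, against 66.7% of all promoters. Among all genes with a ratio of 0.6 or less, 25.2% had a basal-domain peak, against 74.4% of those over 0.6, and 6 of the 34 keratins did (17.6%). The word TATAAA stood 20 to 40 bases before the start at 15 of the 34 keratins (44.1%), against 3.68% of all promoters. None of these 15, among them KRT10, KRT3, KRT76, KRT71 and KRT31, had a basal-domain peak, whereas 28.2% of all genes with TATAAA in this place had one. Of the 19 CpG-poor keratin promoters without it 6 had a peak (31.6%), against 26.3% of all such genes. The other 9 genes with a basal-domain peak (KRT7, KRT18, KRT19, KRT14, KRT15, KRT6A, KRT16, KRT17 and KRT80) are not in this comparison. Their CpG ratios were not computed. Where a peak covered the TSS of one of these, the 300 bp window at its midpoint had from 46.0% (KRT6A) to 73.0% (KRT18) G and C. The lack of peaks at the 15 promoters with TATAAA therefore covers the matched genes only. The 300 bp window at the KRT16 peak, centred 112 bp upstream of its TSS, holds 1 TATAAA, whose place was not scored. The part of promoter composition in the low share over all 55 genes was not tested.

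The linkers of keratin filaments had peaks more often than keratin genes, and the other lists did not exceed the share of all genes for the basal domain, which was 56.0%. Of 10 genes of desmosomes and of linkers that bind keratin filaments, 9 had a basal-domain peak (90%), among them DSP (desmoplakin, midpoint 616 bp downstream of the TSS) and PLEC (plectin, 889 bp downstream). The exception was DSG3, a desmosomal cadherin, whose nearest peak was 17943 bp upstream. Of 16 genes of other intermediate filament proteins 7 had a basal-domain peak (43.8%) and 10 a gene-body peak (62.5%, against 54.1% of all genes). VIM, which encodes the vimentin of mesenchymal cells, had its nearest peak 1297 bp downstream of the TSS, in the gene body and outside the basal domain. Of the 94 keratin-associated protein genes of the whole genome, 1 had a basal-domain peak (1.06%). No test was run on these lists, which were chosen with earlier results of these data known.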

How the data were processed

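The authors made single-end reads of 50 bases from ETS1 ChIP of SCC25, aligned them to hg19 with Bowtie 1.1.1, dropped reads with several loci, and used MACS2 with a merged input followed by IDR to obtain consensus peaks. The submitters' processing notes also name SAMtools 1.3. What was deposited is a list of 3 columns for the 3 samples pooled, with positions counted from 0. It has no unit of signal, and it does not give the depth of any sample.

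Positions were made 1-based and set against the GENCODE 44 annotation on GRCh37, whose nuclear sequence is that of hg19. Of 20163 protein-coding genes, 19856 with a canonical transcript and a name of their own were used, and of the peaks the 26961 on the autosomes, X and Y. The share of 50-base words occurring once was counted over both strands of the genome, by exact match. It may therefore overstate how much of the sequence of near-identical genes the reads could be placed in. Only counts, shares and exact Poisson intervals were computed, since a pooled list allows no test over samples. All keratin genes with a basal-domain or gene-body peak were named, and the others counted by class. The members and lists were chosen with earlier results of these data known. The gene assignment was tested on simulated data, and it recovered 200 of the 200 genes given a peak. The study's super-enhancer and knockdown tables were not used here. Tools were Python 3.11.15 with numba 0.67.0, numpy 2.4.6, scipy 1.17.1, pandas 2.3.3, matplotlib 3.10.9 and pysam 0.24.0, and samtools 1.23.1.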

Additional observations from a re-analysis of the deposited data

How the results depend on the processing

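Of 22 alternative values 18 stayed within 1.5 times the count reported. Among these 18 is the count of the chromosome 17 cluster without the stretch of keratin-associated protein genes. It could not change, because that stretch held 0 peaks. With a window of 1 kb on each side of the TSS, 9 keratin genes had a peak (52.7% of all genes did), since KRT7, KRT84, KRT5, KRT79, KRT36 and KRT14 have their midpoints farther upstream. With basal domains extended up to 1 Mb, as GREAT does by default, 35 did, against 75.0% of all genes. Of the 41 keratin genes with at least 90% single words around the TSS, an alternative chosen after the data were seen, 9 had a basal-domain peak, against 58.9% of all such genes. Among the first 13485 peaks of the list the chromosome 17 cluster held 8 peaks and the chromosome 12 cluster 28, and basal-domain peaks remained at 11 keratin genes, without KRT7, KRT84, KRT19 and KRT16. With 10 kb upstream to 2 kb downstream, 19 genes had a peak, KRT83, KRT74, KRT33A and KRT9 being added, against 59.6% of all genes. Counting the canonical transcript alone, also chosen after the data were seen, left 8 genes with a gene-body peak, since several longer transcripts extend upstream. No replicate could be left out, because the list pools the 3 samples. No paired analysis was possible because the list holds no value per sample. The depth of each sample, and so which weak peaks were missed, could not be read from the list.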
